A study of Mus musculus with 6 samples.

Results

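Cells take up, store and recycle iron through a small set of genes, and 8 of them are described here in cultured mouse microglia with and without Plcg2. They are Fth1 and Ftl1, the heavy and light subunits of ferritin; Tfrc, the transferrin receptor; Hmox1, heme oxygenase; Ncoa4, the receptor that delivers ferritin to lysosomes; Aco1 and Ireb2, which encode iron regulatory proteins; and Fbxl5, which marks those proteins for degradation. The rows were found by exact symbol, 8 of the 54347 gene rows of the deposited table, and each symbol stood on 1 row. The genes were picked because Fth1 is among the most abundant transcripts and higher in Plcg2-/- cells. Their levels and fold changes between the genotypes are therefore given as a description, with no p-value per gene. The fit over all tested genes includes them, and nothing is read from which of them pass its threshold. All 8 passed the filter on low values, a mean TPM (transcript abundance per length and library total) of at least 1 over the 6 libraries.

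The groups were 3 libraries from Plcg2-/- microglia and 3 from Plcg2+/+ littermates, all on the C57BL/6 strain. Plcg2 encodes a phospholipase C that acts below immune receptors of microglia, the macrophages of the brain. Pups were 2 to 3 days old. Both genotypes were grown in mixed glial cultures with 10% serum and 5 ng/mL GM-CSF, detached by shaking at 12 to 13 days of culture, and then kept in 1% serum and 0.5 ng/mL GM-CSF for 72 h or longer, so all cells had seen this cytokine. The labels do not say that replicates came from separate pups or cultures, so the spread behind each p-value is that between these libraries, which may be technical.

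Ferritin stores iron as a mineral inside a shell of heavy and light chains, and cells release that iron by taking the shell into lysosomes. Transferrin receptor brings in iron bound to transferrin, and heme oxygenase frees iron from heme. When iron is scarce, iron regulatory proteins bind hairpins called iron-responsive elements: in a 5′ untranslated region (UTR) this blocks translation of ferritin, and in the 3′ UTR of Tfrc it protects the transcript from decay. Macrophages, microglia among them, take up and recycle iron from other cells.

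The hairpins are shown because they are the feature by which ferritin and Tfrc messages are known to be read in opposite ways. A script searched the transcript strand of GENCODE M21 (GRCm38) protein-coding transcripts for a C, a stem of 5 letters, the loop CAGTGN with any last letter but G, and 5 letters pairing with the stem, G–T pairs allowed. Each line gives 30 bases, 5′ to 3′, with the 6 letters of the loop in capitals.
Fth1, 5′ UTR, chr19:9982732-9982761, plus strand: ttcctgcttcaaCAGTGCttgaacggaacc
Ftl1, 5′ UTR, chr7:45459778-45459807, minus strand: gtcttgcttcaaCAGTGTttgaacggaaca
Tfrc, 3′ UTR, chr16:32631219-32631248, plus strand: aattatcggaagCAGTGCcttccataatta
Tfrc, 3′ UTR, chr16:32631598-32631627, plus strand: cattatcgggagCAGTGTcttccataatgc
Tfrc, 3′ UTR, chr16:32631663-32631692, plus strand: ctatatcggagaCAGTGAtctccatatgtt
Tfrc, 3′ UTR, chr16:32631710-32631739, plus strand: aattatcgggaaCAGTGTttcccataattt
Slc40a1, 5′ UTR, chr1:45925464-45925493, minus strand: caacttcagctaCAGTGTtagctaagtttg

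The pattern stood in the 5′ UTR of 3 of 3 Fth1 transcripts and 1 of 2 Ftl1 transcripts, and 4 times in the 3′ UTR of 1 of 2 Tfrc transcripts. Slc40a1 encodes ferroportin, the iron exporter described further on. Across all genes the pattern was found in the 5′ UTR of 21 of 20890 (0.101%) and in the 3′ UTR of 98 of 21691 (0.452%). Hmox1, Ncoa4, Aco1, Ireb2 and Fbxl5 held no match in either UTR. A match is a description of letters, and binding was not measured.

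Each library lists every gene in TPM, which is scaled per transcript length and sums to 1000000, so levels can be set between genes but the depth behind a value is unknown. The targeted gene followed its labels: Plcg2 had 16.05, 16.7 and 16.1 TPM in Plcg2-/- cells, against 45.2, 39.7 and 54.9 TPM in Plcg2+/+ cells (log2 fold change -1.45, SE 0.14, limma adjusted p = 0.00141). Of 12 microglia markers, summing to 6120 to 6939 TPM in Plcg2-/- libraries and 6484 to 7991 TPM in Plcg2+/+ libraries, 11 were tested, of which 3 were higher (Aif1, P2ry12 and Fcrls) and 3 lower (Itgam, Trem2 and Cx3cr1). These moved strongly in both directions: Fcrls averaged 37.3 TPM in Plcg2-/- cells and 2.80 TPM in Plcg2+/+ cells, and Itgam averaged 81.8 TPM in Plcg2-/- cells and 429 TPM in Plcg2+/+ cells. Fcrls and Itgam passed in all 17 alternative settings listed further on, P2ry12 and Trem2 in 14, and Aif1 in 8. Cx3cr1 passed in 12 of the 16 that gave it a value. Defining markers Cx3cr1 and Tmem119 were near 0 in all 6 libraries, at most 2.92 and 1.47 TPM. The 5 border macrophage markers summed to 897 to 1023 TPM in Plcg2-/- libraries against 374 to 425 TPM in Plcg2+/+ libraries, Pf4 and Ms4a7 being higher, while Cd163 and Lyve1 stayed at or below 0.0731 and 0.0551 TPM. Pf4 passed in all 17 alternative settings, and Ms4a7 in 8. Astrocyte markers summed to 42.5 to 58.1 TPM in Plcg2-/- libraries and 30.2 to 60.1 TPM in Plcg2+/+ libraries, with 1 of 4 tested, Aldh1l1, higher (a mean of 28.3 TPM in Plcg2-/- cells and 12.3 TPM in Plcg2+/+ cells). Oligodendrocyte lineage markers summed to 47.2 to 84.7 TPM in Plcg2-/- libraries and 41.0 to 109 TPM in Plcg2+/+ libraries, and red cell markers to 8.68 to 92.9 TPM in Plcg2-/- libraries and 18.9 to 100.03 TPM in Plcg2+/+ libraries. In both of these lists 0 of 4 tested genes passed. Neuron, endothelial and fibroblast markers summed to at most 8.85, 1.42 and 2.56 TPM. The part of these marker levels in the iron genes' values was not tested.

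Ferritin dominated the set. Fth1 (ENSMUSG00000024661.7, chr19:9980598-9985098, plus strand, GRCm38) had 31527, 30317 and 30839 TPM in Plcg2-/- libraries, against 27142, 17191 and 21479 TPM in Plcg2+/+ libraries. In TPM as deposited, all Plcg2-/- libraries lay above all Plcg2+/+ libraries, and the Plcg2-/- values lay closer together than the Plcg2+/+ values. Median-of-ratios scaling divides each library by a factor, 0.9359 for Plcg2+/+ replicate 1 and 1.058 and 1.102 for Plcg2-/- replicates 2 and 3. So divided, Plcg2+/+ replicate 1 lay above those Plcg2-/- libraries, and the groups overlapped. The mean was 30894 ± 607 TPM in Plcg2-/- cells and 21938 ± 4992 TPM in Plcg2+/+ cells (SD, n = 3 each), a log2 fold change of 0.52 (SE 0.24). Fth1 ranked 2 by TPM in each Plcg2-/- library, and 3, 10 and 2 in Plcg2+/+ replicates 1, 2 and 3. In bulk RNA, fewer cells of a type and less RNA per cell cannot be told apart.

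The light chain lay close behind. Ftl1 (ENSMUSG00000050708.16, chr7:45457944-45459884, minus strand) had 21546, 24185 and 22712 TPM in Plcg2-/- libraries, against 18989, 17129 and 18166 TPM in Plcg2+/+ libraries. The groups again did not overlap, with Plcg2-/- above. Its means were 22814 ± 1323 TPM in Plcg2-/- cells and 18094 ± 932 TPM in Plcg2+/+ cells (SD, n = 3 each), a log2 fold change of 0.33 (SE 0.19).

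Together the 2 subunits made up 5.31%, 5.45% and 5.36% of all TPM in Plcg2-/- libraries, against 4.61%, 3.43% and 3.96% in Plcg2+/+ libraries. This share is a fraction of the whole library, so it also moves when other abundant transcripts do. Mitochondrially encoded genes took 5.00%, 8.23% and 8.68% of TPM in Plcg2-/- libraries, against 15.6%, 17.3% and 13.6% in Plcg2+/+ libraries. With those genes left out, ferritin took 5.59%, 5.94% and 5.86% in Plcg2-/- libraries, against 5.46%, 4.15% and 4.59% in Plcg2+/+ libraries. The groups still did not overlap, with replicate 1 as the lowest Plcg2-/- library and the highest Plcg2+/+ library. Under median-of-ratios scaling instead, the summed TPM of the subunits overlapped, Plcg2+/+ replicate 1 lying above Plcg2-/- replicate 3.

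The balance of the chain messages overlapped between the genotypes. In protein, the balance of the chains differs between tissues and sets how a shell handles iron, but these data hold RNA only. The ratio of Fth1 to Ftl1 TPM was 1.46, 1.25 and 1.36 in Plcg2-/- libraries, against 1.43, 1.00 and 1.18 in Plcg2+/+ libraries. Within each same-numbered pair the Plcg2-/- library had the higher ratio, and replicate 2 had the lowest ratio of both genotypes.

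**Figure D1:**
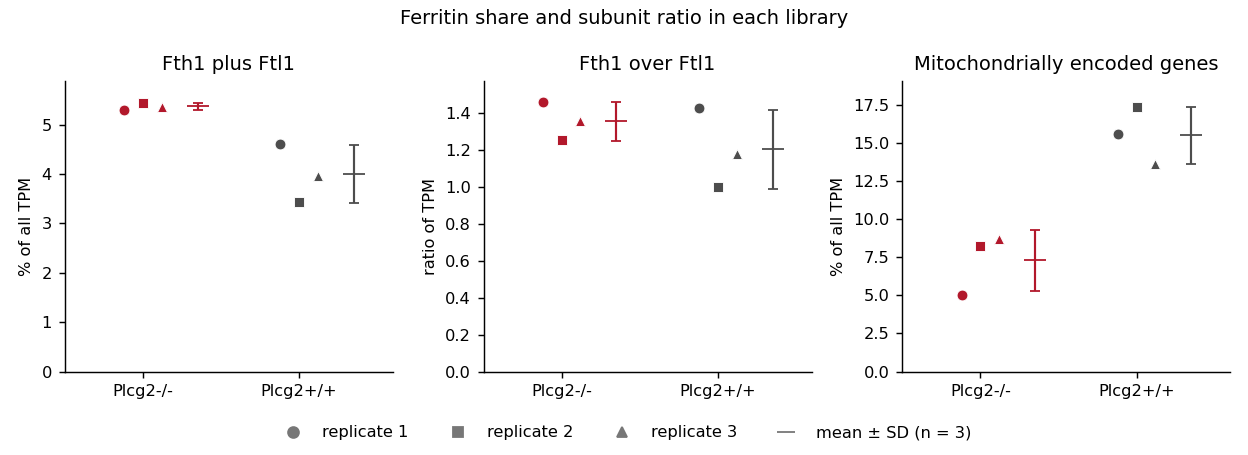
Each point is 1 library, with replicates 1, 2 and 3 as circle, square and triangle and bars for mean ± SD (n = 3), Plcg2-/- left of Plcg2+/+. The y axes give Fth1 plus Ftl1 as a percent of all TPM (5.31 to 5.45% in Plcg2-/-, 3.43 to 4.61% in Plcg2+/+), the ratio of Fth1 to Ftl1 TPM, where the genotypes overlap, and mitochondrially encoded genes as a percent of all TPM, where Plcg2-/- lies below Plcg2+/+.

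Ferritin has processed copies in the mouse genome that can share reads with the parent genes. With at least 90% identity over at least 50% of the message as the limit, Ftl1 had 7 copies and Fth1 had 1. The copy Ftl1-ps1 was 99.6% identical over 94.0% of the Ftl1 message. It was listed at 709, 884 and 740 TPM in Plcg2-/- libraries, against 678, 624 and 793 TPM in Plcg2+/+ libraries, and those groups overlapped. Reads of this copy and of Ftl1 may be split between the rows in an uncertain way. All 7 copies summed to at most 896 TPM in Plcg2-/- libraries and 805 TPM in Plcg2+/+ libraries, small beside Ftl1 itself, and the single Fth1 copy, Gm6977, stayed at or below 0.492 TPM.

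Iron uptake showed the widest difference among the 8 genes. Tfrc (ENSMUSG00000022797.16, chr16:32608920-32632794, plus strand) had 26.4, 56.3 and 41.4 TPM in Plcg2-/- libraries, against 14.2, 16.1 and 14.8 TPM in Plcg2+/+ libraries. The Plcg2+/+ values lay close together, and the Plcg2-/- values, all higher, were spread over a wide range with replicate 2 on top. The means were 41.4 ± 15.0 TPM in Plcg2-/- cells and 15.0 ± 0.960 TPM in Plcg2+/+ cells (SD, n = 3 each), a log2 fold change of 1.34 (SE 0.25), or 2.53-fold on the TPM + 1 scale.

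In TPM as deposited, the messages of the receptor and of both ferritin chains all had higher levels in Plcg2-/- libraries. They carry the hairpins on opposite sides, and any part of the hairpins in these levels was not tested. Between same-numbered libraries, Tfrc was higher in Plcg2-/- by 0.85, 1.75 and 1.43 on the log2 scale for replicates 1, 2 and 3. For Fth1 these differences were 0.22, 0.82 and 0.52. For Ftl1 they were 0.18, 0.50 and 0.32, so in all 3 genes the pair numbered 2 differed most and the pair numbered 1 least. In TPM as deposited, Ncoa4, Aco1, Ireb2 and Fbxl5, described next, were also higher in the Plcg2-/- library of every pair, by 0.10 to 0.68. Hmox1 had differences of -0.24, -0.18 and 0.05. On that scale the middle tested gene was itself shifted toward Plcg2-/- by 0.19. Below that shift lay Ncoa4 and Aco1 in pair 2 (0.11 and 0.17), Ireb2 and Ftl1 in pair 1 (0.18 each) and Fbxl5 in pair 3 (0.10). Not every pair kept its sign after division by the median-of-ratios factors. These were 1.058 for Plcg2-/- and 0.9192 for Plcg2+/+ in pair 2, and 1.102 and 0.9888 in pair 3. So divided, Ncoa4 and Aco1 in pair 2, and Fbxl5 and Hmox1 in pair 3, lay lower in the Plcg2-/- library. How many tested genes share the pattern of the deposited values was not tested.

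Heme breakdown through the inducible oxygenase went the other way in sign. Hmox1 (ENSMUSG00000005413.8, chr8:75093621-75100589, plus strand) had 222.5, 266.8 and 262.0 TPM in Plcg2-/- libraries, against 262.5, 301.4 and 253.1 TPM in Plcg2+/+ libraries. The groups overlapped, and the lowest and the highest library came from different genotypes. The means were 250.4 ± 24.3 TPM in Plcg2-/- cells and 272.3 ± 25.6 TPM in Plcg2+/+ cells (SD, n = 3 each), a log2 fold change of -0.12 (SE 0.13).

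Ncoa4, which binds ferritin for delivery to lysosomes, had 339.1, 250.8 and 337.8 TPM in Plcg2-/- libraries, against 256.2, 232.9 and 266.0 TPM in Plcg2+/+ libraries. Replicate 2 of Plcg2-/- lay among the Plcg2+/+ values, so the groups overlapped. The log2 fold change was 0.28 (SE 0.15) for this gene (ENSMUSG00000056234.15, chr14:32159865-32179855).

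The regulators of iron sensing overlapped between the genotypes. Aco1, cytosolic aconitase, which becomes iron regulatory protein when it lacks its iron-sulphur cluster, had 47.9, 31.3 and 43.1 TPM in Plcg2-/- libraries, against 29.6, 27.6 and 35.1 TPM in Plcg2+/+ libraries. Ireb2, the other iron regulatory protein, had 22.4, 17.1 and 22.8 TPM in Plcg2-/- libraries, against 19.7, 14.5 and 17.5 TPM in Plcg2+/+ libraries. Fbxl5, an iron-sensing part of a ubiquitin ligase, had 42.8, 35.2 and 48.1 TPM in Plcg2-/- libraries, against 32.2, 24.4 and 44.7 TPM in Plcg2+/+ libraries. In each of these 3 genes the genotypes overlapped and replicate 2 was the lowest library of both genotypes. The log2 fold changes were 0.38 (SE 0.18) for Aco1 (ENSMUSG00000028405.9, chr4:40143081-40198338), 0.26 (SE 0.16) for Ireb2 (ENSMUSG00000032293.8, chr9:54863789-54912530) and 0.34 (SE 0.23) for Fbxl5 (ENSMUSG00000039753.16, chr5:43744615-43821638).

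**Figure D2:**
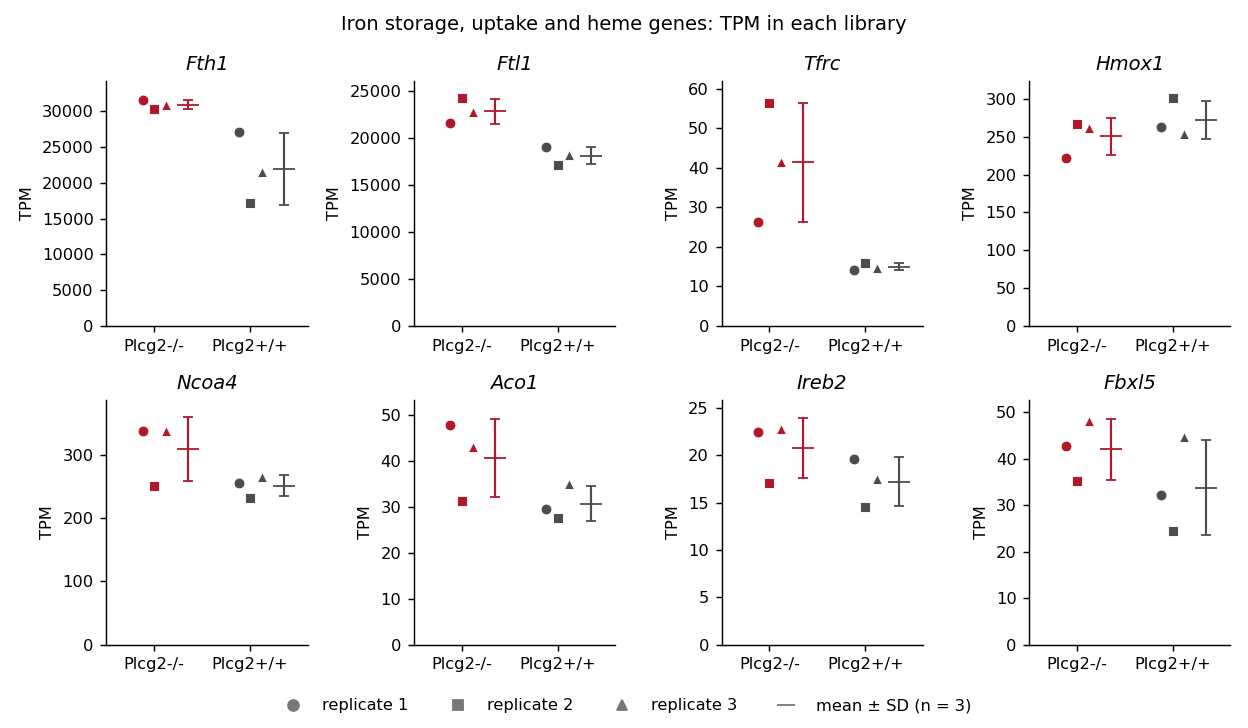
TPM of the 8 genes on linear axes that start at 0, with 1 point per library, replicates 1, 2 and 3 as circle, square and triangle, and bars for mean ± SD (n = 3), Plcg2-/- left of Plcg2+/+. Fth1, Ftl1 and Tfrc have all Plcg2-/- points above all Plcg2+/+ points, and in the other 5 genes the points overlap.

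As levels per transcript length, the genes kept a wide order. In Plcg2-/- cells the mean TPM fell in the order Fth1, Ftl1, Ncoa4, Hmox1, Fbxl5, Tfrc, Aco1 and Ireb2. In Plcg2+/+ cells the order was Fth1, Ftl1, Hmox1, Ncoa4, Fbxl5, Aco1, Ireb2 and Tfrc, so Tfrc stood at place 6 in Plcg2-/- cells and 8 in Plcg2+/+ cells. Library values of Ncoa4 and Hmox1 overlapped in both genotypes, as did those of Fbxl5 and Aco1. Fth1 and Ftl1 overlapped in Plcg2+/+ libraries but not in Plcg2-/- libraries, and Tfrc overlapped Ireb2 in Plcg2+/+ libraries but not in Plcg2-/- libraries. In Plcg2-/- cells Tfrc also overlapped both neighbours. Its libraries spanned 26.4 to 56.3 TPM, and the means of Fbxl5, Tfrc and Aco1 were 42.0, 41.4 and 40.7 TPM, so place 6 is not firm.

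Replicate 2 was the library most often lowest in both genotypes, counted over these 8 genes and not over all tested genes. It was the lowest library of its genotype for 5 of 8 genes in Plcg2-/- cells and for 6 of 8 in Plcg2+/+ cells, and for Fth1, Ncoa4, Aco1, Ireb2 and Fbxl5 in both. It was the highest for Tfrc and Hmox1 in both genotypes, while for Ftl1 it was the highest in Plcg2-/- cells and the lowest in Plcg2+/+ cells. Over the 6 libraries, which share genotype and replicate number, the log2 values of Ncoa4 and Aco1 had a Pearson r of 0.97, those of Ncoa4 and Ireb2 0.92 and those of Ftl1 and Tfrc 0.94. Hmox1 and Aco1 had an r of -0.81.

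Across the 8 genes, 1 (Tfrc) passed a limma adjusted p of 0.05 as higher in Plcg2-/- cells, where 15.6% of the 12652 tested genes did, and 0 passed as lower, where 5.31% did. For 3 of 8 all Plcg2-/- libraries lay above all Plcg2+/+ libraries, against 32.4% of tested genes, and for 0 of 8 they all lay below, against 10.9%. Because the genes were picked on this contrast, nothing is read from these counts. The median log2 fold change was 0.34 for the 8 genes and 0.19 for all tested genes. The middle tested gene thus lay higher in Plcg2-/- libraries, although TPM sums to the same total in every library. After median-of-ratios scaling the medians were 0.16 and 0.0285, and the calls over all genes went to 1000 higher and 911 lower, against 1971 and 672 in the deposited values. Under that scaling the log2 fold changes were 0.34 for Fth1, 0.16 for Ftl1, 1.17 for Tfrc and -0.30 for Hmox1. Tfrc no longer passed the threshold without replicate 3 of Plcg2-/- (log2 fold change 1.31) or without replicate 1 of Plcg2+/+ (1.30). Without replicate 2 of Plcg2-/-, 2 of the 8 genes passed as higher, where 1801 of all tested genes were higher and 580 lower. The second of the 8 was Aco1, with a log2 fold change of 0.55, and nothing is read from this count either.

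**Figure D3:**
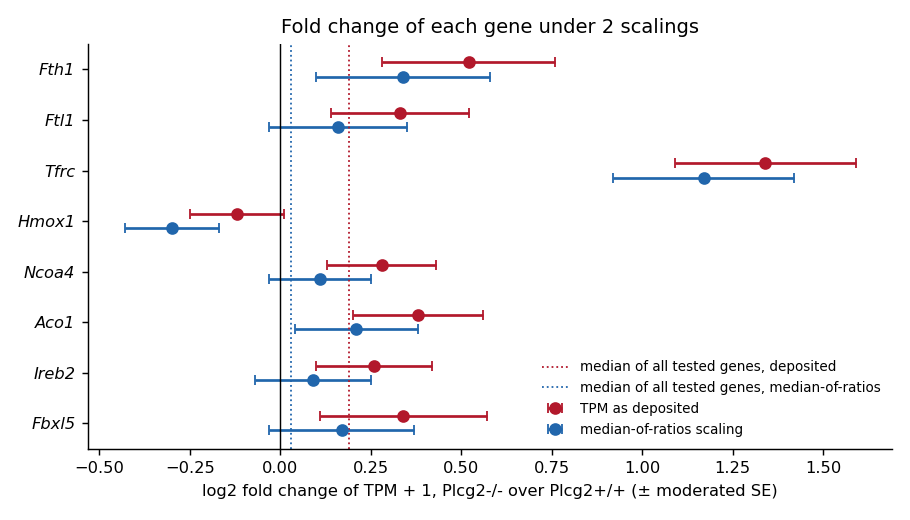
Log2 fold change of TPM + 1, Plcg2-/- over Plcg2+/+, with its moderated SE, for the TPM as deposited (red) and after median-of-ratios scaling (blue); dotted lines mark the median of all tested genes, 0.19 and 0.0285. Tfrc lies farthest to the right, at 1.34 and 1.17, and Hmox1 is the 1 gene left of 0, at -0.12 and -0.30.

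Iron transport genes outside the 8 moved in both directions. Of 22 listed, 13 were tested, 2 were higher and 4 lower (15.4% and 30.8%, against 15.6% and 5.31% of all tested genes), with a median log2 fold change of -0.10. Slc40a1 (ferroportin), which releases iron from macrophages and carries the hairpin shown above, had 125, 132 and 113 TPM in Plcg2-/- libraries, against 36.9, 37.9 and 19.0 TPM in Plcg2+/+ libraries. It rose by a log2 fold change of 2.01 (SE 0.26, limma adjusted p = 0.00378), higher in 3 of 3 Plcg2-/- libraries and past the threshold in all 17 alternatives tried. Hfe, a partner of transferrin receptor, also rose, with 43.4 ± 5.11 TPM in Plcg2-/- cells and 24.6 ± 2.89 TPM in Plcg2+/+ cells (log2 fold change 0.79, SE 0.14, limma adjusted p = 0.0105), but missed the threshold without replicate 1 of Plcg2-/- (limma adjusted p = 0.0571), which left 1 gene called higher.

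The message of the receptor's ligand stood lower where that of the receptor stood higher, and transferrin protein was not measured. Trf (transferrin) had 574, 893 and 774 TPM in Plcg2-/- libraries, against 1415, 1755 and 1564 TPM in Plcg2+/+ libraries (log2 fold change -1.10, SE 0.19, limma adjusted p = 0.0112). Steap3, an endosomal reductase that prepares transferrin iron for export to the cytosol, had 18.7, 18.4 and 24.0 TPM in Plcg2-/- libraries, against 48.1, 65.2 and 44.6 TPM in Plcg2+/+ libraries (log2 fold change -1.32, SE 0.18, limma adjusted p = 0.00446). Both had 3 of 3 Plcg2-/- libraries below every Plcg2+/+ library. The other 2 lower calls, Slc22a17 and Cd63, named here after their values were seen, were both lost in each of the 6 fits that leave out 1 library, where 2 genes were lower. With the replicate block Cd63 missed the threshold as well (limma adjusted p = 0.0522). The 9 untested genes, among them Heph and Tfr2, had means below 1 TPM over the 6 libraries together.

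Chaperones and regulators of iron showed more calls upward. Of 14 tested genes, 6 were higher and 0 lower (42.9% and 0.0%, against 15.6% and 5.31% of all tested genes), with a median log2 fold change of 0.42. Keap1, which holds the stress factor NRF2 in check, had 44.8 ± 3.14 TPM in Plcg2-/- cells and 25.8 ± 2.76 TPM in Plcg2+/+ cells (log2 fold change 0.78, SE 0.12, limma adjusted p = 0.00689). Mafk, a small partner of NRF2 and of the heme-sensing repressor Bach1, had 29.9 ± 3.60 TPM in Plcg2-/- cells and 17.2 ± 1.32 TPM in Plcg2+/+ cells (log2 fold change 0.76, SE 0.13, limma adjusted p = 0.00953). Keap1 passed under all 17 alternatives, and Mafk under all but 1, missing the threshold without replicate 1 of Plcg2-/- (limma adjusted p = 0.0522).

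Pcbp2 and Usp35, of the same list, passed under 8 and 10 of the 17 alternatives. Pcbp2, an iron chaperone that also binds RNA, had 529 ± 4.98 TPM in Plcg2-/- cells and 337 ± 56.3 TPM in Plcg2+/+ cells (log2 fold change 0.66, SE 0.15, limma adjusted p = 0.0233). Under median-of-ratios scaling the limma adjusted p of Pcbp2 came to 0.0549, and without replicates 1, 2 or 3 of Plcg2-/- or replicate 1 of Plcg2+/+ it was 0.0911, 0.0539, 0.0774 or 0.0610. Usp35, a deubiquitinase, had 24.75 ± 3.81 TPM in Plcg2-/- cells and 14.6 ± 1.93 TPM in Plcg2+/+ cells (log2 fold change 0.72, SE 0.15, limma adjusted p = 0.0210). For Usp35 it came to 0.0552 under that scaling, and 0.0926, 0.0556, 0.0794 or 0.0730 without replicates 1 or 2 of Plcg2-/- or replicates 1 or 2 of Plcg2+/+. The list's count of higher genes was 2 after median-of-ratios scaling, where 1 gene was lower. Over all tested genes that scaling gave 1000 higher and 911 lower. The list's count of higher genes was 1, 3 and 3 without replicates 1, 2 and 3 of Plcg2-/-, and 2, 3 and 7 without replicates 1, 2 and 3 of Plcg2+/+. Over all tested genes the same fits gave 559, 1801 and 786 higher, and 782, 940 and 2106 higher.

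Heme synthesis gave a single call. Of 12 tested genes, 0 were higher and 1 lower (0.0% and 8.3%, against 15.6% and 5.31% of all tested genes). The median log2 fold change was 0.06. Alas1, the first and rate-limiting enzyme of heme synthesis outside the red cell line, had 270, 306 and 382 TPM in Plcg2-/- libraries, against 833, 1218 and 782 TPM in Plcg2+/+ libraries. It fell by 1.55 on the log2 scale (SE 0.21, limma adjusted p = 0.00483), with no overlap, and passed under all 17 alternatives. Abcb10, Fech and Tmem14c, the next genes by p, averaged 8.76, 25.9 and 331 TPM in Plcg2-/- cells against 6.25, 19.2 and 262 TPM in Plcg2+/+ cells, and did not pass (limma adjusted p = 0.0998, 0.198 and 0.202). Without replicate 2 of Plcg2-/- the list had 2 higher genes, Abcb10 and Fech, and without replicate 3 of Plcg2+/+ it had 1, Tmem14c.

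Heme breakdown and transport, apart from Hmox1, held calls in both directions: 1 higher and 2 lower of 13 tested (7.7% and 15.4%). The shares of all tested genes were 15.6% and 5.31%. The list's median log2 fold change was -0.33. Hmox2, the constitutive heme oxygenase, rose: it had 188, 165 and 157 TPM in Plcg2-/- libraries, against 77.8, 63.4 and 90.3 TPM in Plcg2+/+ libraries (log2 fold change 1.14, SE 0.15, limma adjusted p = 0.00451). Its level in Plcg2-/- libraries stayed below that of Hmox1, while every Plcg2-/- library lay above every Plcg2+/+ library. Flvcr1, a transporter described as a heme exporter, fell to 22.6, 24.8 and 26.6 TPM in Plcg2-/- libraries, against 69.8, 80.0 and 54.7 TPM in Plcg2+/+ libraries (log2 fold change -1.42, SE 0.16, limma adjusted p = 0.00221).

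Lrp1, a scavenger receptor that takes up heme bound to hemopexin among many ligands, had 388, 615 and 515 TPM in Plcg2-/- libraries, against 911, 1132 and 1026 TPM in Plcg2+/+ libraries. It fell by 1.03 on the log2 scale (SE 0.19, limma adjusted p = 0.0135), and missed the threshold without replicate 3 of Plcg2-/- (limma adjusted p = 0.0511), which left 1 gene called lower. Blvrb, which reduces biliverdin and flavins, averaged 228 ± 35.3 TPM in Plcg2-/- cells and 160 ± 24.4 TPM in Plcg2+/+ cells and did not pass (log2 fold change 0.51, limma adjusted p = 0.0673), though it did with the replicate number as a block (limma adjusted p = 0.0252) and again missed it when median-of-ratios scaling was added to the block (limma adjusted p = 0.0860). The blocked fit had 2 genes higher and 4 lower in this list. Without replicate 3 of Plcg2+/+, 2 were higher, and median-of-ratios scaling gave 1 higher and 4 lower.

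**Figure D4:**
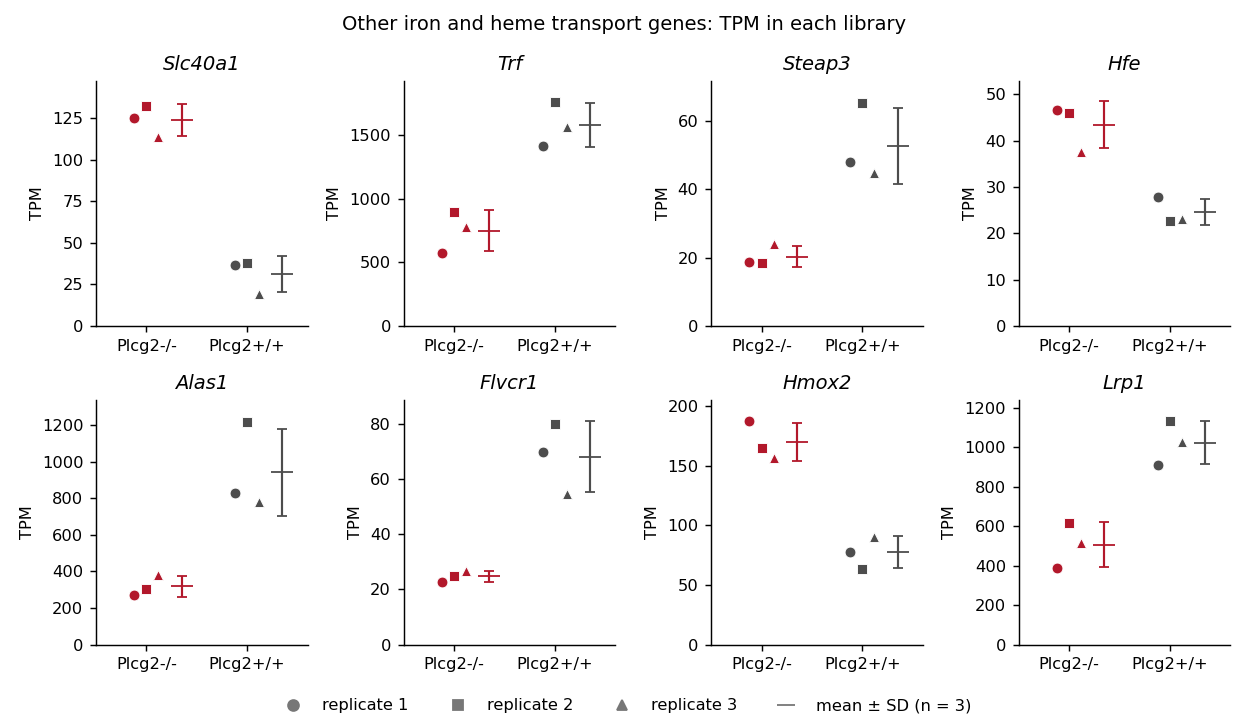
TPM of Slc40a1, Trf, Steap3, Hfe, Alas1, Flvcr1, Hmox2 and Lrp1 on linear axes from 0, with 1 point per library, replicates 1, 2 and 3 as circle, square and triangle, and bars for mean ± SD (n = 3), Plcg2-/- left of Plcg2+/+. Slc40a1, Hfe and Hmox2 lie higher in all 3 Plcg2-/- libraries, and the other 5 genes lie lower.

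Mitochondrial iron and iron-sulphur cluster genes had 2 higher and 0 lower of 28 tested (7.1% and 0.0%, against 15.6% and 5.31% of all tested genes). Their median log2 fold change was 0.16. Both calls were scaffold proteins for clusters of the cytosol. Nubp2 had 54.3 ± 2.44 TPM in Plcg2-/- cells and 33.0 ± 4.01 TPM in Plcg2+/+ cells (log2 fold change 0.71, SE 0.12, limma adjusted p = 0.0105), and Nubp1 had 27.1 ± 1.84 TPM in Plcg2-/- cells and 17.6 ± 0.765 TPM in Plcg2+/+ cells (log2 fold change 0.59, SE 0.11, limma adjusted p = 0.0117). Without replicate 1 of Plcg2-/- both missed the threshold (limma adjusted p = 0.0556 and 0.0615), leaving 0 calls, and Nubp1 also missed it under quantile normalization (limma adjusted p = 0.0619). Without replicate 3 of Plcg2+/+ there were 4 calls. Cisd2, an iron-sulphur protein, averaged 50.4 TPM in Plcg2-/- cells and 35.5 TPM in Plcg2+/+ cells (limma adjusted p = 0.0595, 0.0275 with the replicate block and 0.106 with the block and median-of-ratios scaling), and Iscu, the mitochondrial scaffold, averaged 126 TPM in Plcg2-/- cells and 95.0 TPM in Plcg2+/+ cells (limma adjusted p = 0.0795).

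Targets of NRF2, a set that ferritin and Hmox1 are usually counted with, had 1 higher and 0 lower of 13 tested (7.7% and 0.0%). The shares of all tested genes were 15.6% and 5.31%. The list's median log2 fold change was -0.03. The call was G6pdx, the first enzyme of the pentose phosphate pathway, with 134, 147 and 163 TPM in Plcg2-/- libraries, against 79.9, 83.6 and 83.2 TPM in Plcg2+/+ libraries (log2 fold change 0.83, SE 0.11, limma adjusted p = 0.00413). Osgin1, Slc7a11 and Srxn1, next by p, averaged 15.8, 25.8 and 48.8 TPM in Plcg2-/- cells against 9.11, 38.3 and 72.6 TPM in Plcg2+/+ cells and did not pass (limma adjusted p = 0.110, 0.149 and 0.190).

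Over all 6 lists, 12 genes were higher and 7 lower of 93 tested (12.9% and 7.5%, near the 15.6% and 5.31% of all tested genes), with a median log2 fold change of 0.10. After median-of-ratios scaling there were 8 higher and 10 lower, with a median of -0.07, so the split between directions turned with the scaling. Without replicate 1 of Plcg2-/- the count of higher genes was 4, and with the replicate block the counts were 17 and 9.

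**Figure D5:**
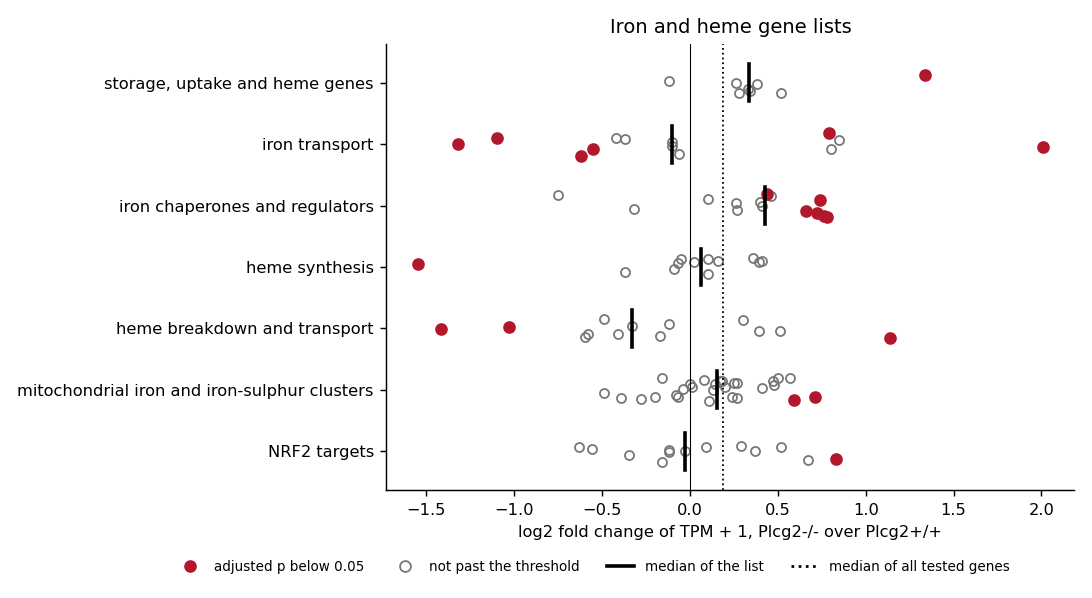
Log2 fold change of TPM + 1, Plcg2-/- over Plcg2+/+, with 1 point per tested gene: filled red points have a limma adjusted p below 0.05, open points do not, black bars are list medians and the dotted line is the median of all tested genes, 0.19. The iron transport row has filled points on both sides of 0, with Slc40a1 at 2.01 and Steap3 at -1.32, and the chaperone and regulator row has its 6 filled points right of 0.

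The genes whose log2 levels followed Fth1 most closely over the 6 libraries, among 9262 genes with a mean of at least 5 TPM, were Rps13-ps2, Irak1, Surf2, Dcun1d2 and Zfp809, with Pearson r of 0.997, 0.996, 0.994, 0.991 and 0.990. For Hmox1, Cd68, Pgd, Slc9a8 and St3gal1 were among the 5 closest, with r of 0.983, 0.970, 0.969 and 0.967. With 6 libraries and 9262 genes ranked, high values of r at the top of such a list are given as a description only. Cd68, a lysosomal protein of macrophages, averaged 1439 ± 183 TPM in Plcg2-/- cells and 1587 ± 237 TPM in Plcg2+/+ cells (SD, n = 3 each), overlapping as Hmox1 did.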

How the data were processed

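RNA of 6 libraries was analysed, 3 Plcg2-/- and 3 Plcg2+/+, grouped by the genotype in the sample titles. Expression was deposited by the authors as a single table of TPM for each gene, and counts were not analysed here. Per the labels' protocols, sequencing of the polyA-selected libraries gave paired reads of 150 bp, and about 20 M reads are stated for each. The submitters' processing notes list the build GRCm38.p6 and the tools R 4.0.4, DESeq2 1.30.1 and Salmon 1.3.0. Which of them made the TPM values is not given in these sources. TPM keeps no depth, so no interval for counting error can be given.

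TPM was transformed to log2(TPM + 1), which understates the change of low genes. The 12652 genes with a mean of at least 1 TPM were compared by limma 3.58.1, run in R 4.3.3 (two-sided test of Plcg2-/- against Plcg2+/+, mean-dependent prior variance, 4 residual degrees of freedom), with Benjamini-Hochberg adjustment over all of them and a threshold of 0.05. Tables and plots were made in Python 3.11.15 with numpy 2.4.6, matplotlib 3.10.9 and pandas 2.3.3. Positions come from GENCODE M21, which held the versioned identifiers of 53307 of 54347 rows. The test was tested on simulated data. The 8 genes, the gene lists and the rule for named genes (the 8, Plcg2, ferritin copies, up to 4 tested genes per list with the smallest p, and the 5 genes most like Fth1 and Hmox1) were chosen with earlier results of these data known. Of the genes most like Hmox1, 1 is not reported here.

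The titles give replicate numbers 1 to 3. For same-numbered libraries, deviations from their genotype's mean had correlations of 0.295, 0.193 and 0.147, each above the limit of 0.1. Pairing by number was used only for the differences given per pair and for the replicate block among the alternatives. The reported fit, with its SE, p-values and calls, is unblocked and ignores pairing, as what a number marks is not stated. The 17 alternatives were no filter, a mean of at least 5 TPM, a pseudocount of 0.1 or 0.5, median-of-ratios scaling, rescaling without mitochondrially encoded genes, quantile normalization, a constant prior variance, the replicate block with and without median-of-ratios scaling, the level of Y-linked genes as a covariate, and leaving out each library.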

Additional observations from a re-analysis of the deposited data

How the results depend on the processing

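Fold changes of the 8 genes kept their direction in all 17 alternatives, and so did those of Plcg2 and of the up to 4 genes per list named for the smallest p, the results recomputed. Over all genes the higher calls were 1226 with no filter, 1000 with median-of-ratios scaling, 1223 without mitochondrially encoded genes, 959 with quantile normalization, 1236 with the replicate block and median-of-ratios scaling, 941 with the Y-linked covariate and 559 to 2106 with 1 library left out; the lower calls were 1031 with quantile normalization, 1057 with the block and median-of-ratios scaling, 411 with the covariate and 276 to 644 with 1 library left out. Of the 8 genes, 2 passed with quantile normalization, the second being Ftl1 (log2 fold change 0.74), and 0 to 2 with 1 library left out. Of the list genes, 7 were higher with quantile normalization, 14 lower with the block and median-of-ratios scaling, and 4 to 17 were higher and 5 to 6 lower with 1 library left out. The ferritin share was 5.80% in Plcg2-/- and 4.73% in Plcg2+/+ libraries without mitochondrially encoded genes, and 5.45% in Plcg2-/- and 4.07% in Plcg2+/+ libraries with every ferritin row added. The replicate block alone gave 2483 higher and 815 lower calls over all genes and 1 among the 8; beside Blvrb, Cisd2 and Cd63 it changed no other call of a list gene named in the text. The cause of these shifts was not tested. With 3 libraries per genotype an exact permutation test of a single value cannot go below p = 0.1.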
